A study of Homo sapiens with 12 samples.

Results

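Transcripts of the epidermal growth factor (EGF) family were followed in 2 human cell lines grown in a chip device, alone or together. The members were 8 genes listed by name: the ligand genes EREG, AREG, HBEGF, TGFA and BTC and the receptor genes EGFR, ERBB2 and ERBB3. Each was found once among the 60612 genes of the HCCLM3 table and once among the 32507 genes of the LX2 table, and all 8 passed the filter on low counts in both lines. The 12 libraries form 4 groups of 3, all given as wild type: HCCLM3 with LX2, HCCLM3 alone, LX2 with HCCLM3 and LX2 alone. HCCLM3 is given in the labels as a hepatoma line and LX2 as a line of hepatic stellate cells. Each is 1 line. Nothing in the labels tells whether replicates were separate cultures, and the p-values therefore cover only the variation among these libraries, part of which can be technical. The labels do not state how co-cultured cells of each line were separated for RNA extraction.

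EGF family ligands are made as membrane-bound precursors, and proteases of the ADAM family cut them free. Soluble EREG, AREG, HBEGF, TGFA and BTC bind EGFR, and HBEGF, EREG and BTC also bind ERBB4. Bound receptors pair up. ERBB2 has no known ligand and serves as a partner, while ERBB3 binds neuregulins and, having little kinase activity of its own, signals through its partner. In the liver EGFR ligands are known as growth signals for hepatocytes during regeneration, and stellate cells can respond to them.

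Of the 5 ligand genes, 3 lie in a cluster on chromosome 4 that also holds EPGN, which encodes a further EGFR ligand. From the start of EPGN to the end of BTC the cluster spans 486 kb and holds 6 genes in GENCODE release 29, of which the 4 protein-coding ones are EPGN, EREG, AREG and BTC. In the tables EREG (ENSG00000124882) lies at 74365145 to 74388749, AREG (ENSG00000109321) at 74445136 to 74455005, both on the plus strand, and BTC (ENSG00000174808) at 74744759 to 74794523 on the minus strand. HBEGF lies on chromosome 5 (140332843 to 140346603), TGFA on chromosome 2 (70447284 to 70553826), EGFR on chromosome 7 (55019017 to 55211628), ERBB2 on chromosome 17 (39687914 to 39730426) and ERBB3 on chromosome 12 (56076799 to 56103505). Each of these spans holds the gene with its exons, introns and untranslated regions.

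The 250 bases before the start are shown for the 4 ligand genes that were lower in HCCLM3 of the co-culture, because they let the genes of the cluster be set beside TGFA. They come from the RefSeq table of GRCh38.p14, which held 7 of the 8 members (not ERBB3), and each ends at the base before the gene start given in the deposited tables. All are written 5′ to 3′ on the strand of the gene. Capitals mark the motifs searched on both strands: the cAMP response element TGACGTCA, the AP-1 site TGANTCA, the TATA box TATAAA, the ETS core CCGGAA and the SP1 box GGGCGG.
EREG, chr4:74364895-74365144, plus strand: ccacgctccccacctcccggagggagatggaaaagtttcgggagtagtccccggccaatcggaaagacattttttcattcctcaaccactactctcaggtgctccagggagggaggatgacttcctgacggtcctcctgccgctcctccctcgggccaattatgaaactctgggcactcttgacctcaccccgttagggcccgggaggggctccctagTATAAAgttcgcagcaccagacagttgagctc
AREG, chr4:74444886-74445135, plus strand: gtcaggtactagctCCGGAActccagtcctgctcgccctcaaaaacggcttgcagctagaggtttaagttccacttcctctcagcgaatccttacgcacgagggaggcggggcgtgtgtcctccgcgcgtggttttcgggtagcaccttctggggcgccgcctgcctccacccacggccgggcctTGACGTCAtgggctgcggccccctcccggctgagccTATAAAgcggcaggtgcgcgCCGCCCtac
BTC, chr4:74794524-74794773, minus strand: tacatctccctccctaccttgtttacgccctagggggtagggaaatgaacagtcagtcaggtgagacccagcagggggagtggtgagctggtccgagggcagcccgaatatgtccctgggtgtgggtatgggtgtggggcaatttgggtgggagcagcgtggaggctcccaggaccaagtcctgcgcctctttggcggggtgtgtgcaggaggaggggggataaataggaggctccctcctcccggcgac
TGFA, chr2:70553827-70554076, minus strand: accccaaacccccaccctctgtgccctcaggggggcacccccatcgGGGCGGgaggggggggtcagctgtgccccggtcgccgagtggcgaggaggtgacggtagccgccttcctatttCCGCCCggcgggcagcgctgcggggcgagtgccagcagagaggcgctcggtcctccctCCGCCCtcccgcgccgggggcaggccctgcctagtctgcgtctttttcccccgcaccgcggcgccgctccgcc

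EREG and AREG both carry a TATA box near the start, with its first base at position -32 in EREG and -29 in AREG, counted back from the start. TATAAA was in 10.7% of the 35116 RefSeq windows of this length. AREG also holds the full cAMP response element, at position -65, which 1.65% of the windows hold. No motif overlapped another in the printed windows. TGFA has 3 SP1 boxes and AREG 1, a motif held by 42.6% of the windows, and AREG has 1 ETS core, held by 14.5%. In the BTC window none of these letters was found, and AP-1, held by 6.57% of the windows, was in none of the 4. A match of letters is a description and not a bound site.

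Totals ran from 65675929 to 68178411 counts in HCCLM3 with LX2, 68088914 to 77712308 in HCCLM3 alone, 64438991 to 69891842 in LX2 with HCCLM3 and 61836616 to 65314354 in LX2 alone. Levels are given in FPKM, the authors' fragment counts per gene length and library size, as mean ± SD over 3 libraries, and changes as log2 fold changes from raw counts with the edgeR quasi-likelihood test, two-sided, with Benjamini-Hochberg adjustment over all genes tested in the line. Of 6 epithelial markers all had counts in both HCCLM3 groups, with KRT8 at 332 ± 55.03 FPKM in HCCLM3 with LX2 and 555 ± 29.2 FPKM in HCCLM3 alone. Of 6 hepatocyte markers the sum was 36.9 to 37.7 FPKM in HCCLM3 with LX2 and 2.89 to 3.15 FPKM in HCCLM3 alone, most of it from the fibrinogen gene FGB (33.4 ± 0.647 FPKM in HCCLM3 with LX2 and 2.16 ± 0.0196 FPKM in HCCLM3 alone), while TTR had 0 counts in HCCLM3 with LX2. Of 9 stellate and fibroblast markers COL1A2 and SPARC had 0 counts in LX2 alone, while vimentin (VIM) stood at 167 ± 15.9 FPKM in LX2 with HCCLM3 and 176 ± 18.7 FPKM in LX2 alone. LUM had means of 9.25 FPKM in HCCLM3 with LX2 and 10.97 FPKM in HCCLM3 alone. In LX2 its means were 0.264 FPKM with HCCLM3 and 1.02 FPKM alone. COL1A2, DCN and SPARC also had higher means in both HCCLM3 groups than in either LX2 group. VIM, COL1A1, ACTA2 and PDGFRB had lower means there, and COL3A1 was mixed. The lines were scaled separately. The line names are therefore those of the labels.

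In HCCLM3 with LX2, 4 of the 5 ligand genes fell and ERBB2 and ERBB3 rose, while HBEGF and EGFR did not pass the test. This gives 6 of 8 members called, against 21.7% of the 18045 genes tested in that line. Lower calls were 4 of 8 (11.6% of all genes) and higher calls 2 of 8 (10.1% of all genes). The split of all genes depended on the scaling: TMM factors gave 1829 genes higher and 2095 lower, library totals 2977 higher and 1039 lower, and limma on log2(FPKM + 1) 3104 higher and 1106 lower, while the members' calls and directions were the same under all 3. In 7 of 8 members the libraries of both groups did not overlap in scaled counts, which also held for 43.1% of all genes tested. These are bulk libraries, in which fewer cells of a type and less RNA per cell cannot be told apart.

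EREG encodes epiregulin, a ligand of low affinity for EGFR and ERBB4. It had 5.71, 5.90 and 6.02 FPKM in HCCLM3 with LX2, against 15.5, 19.9 and 16.4 FPKM in HCCLM3 alone. Every library of the co-culture lay below every library alone, and the co-cultured libraries were close to one another. EREG was 3.29-fold lower in HCCLM3 with LX2 (log2 fold change -1.72, SE 0.104; edgeR adjusted p = 0.000462). AREG encodes amphiregulin, which binds EGFR. It had 10.1, 9.17 and 9.71 FPKM in HCCLM3 with LX2, against 24.4, 21.3 and 22.1 FPKM in HCCLM3 alone. The groups stood apart here too, and AREG was 2.63-fold lower in HCCLM3 with LX2 (log2 fold change -1.39, SE 0.104; edgeR adjusted p = 0.000713).

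TGFA encodes transforming growth factor alpha, a high-affinity EGFR ligand. It had 3.85, 3.94 and 3.79 FPKM in HCCLM3 with LX2, against 6.73, 7.66 and 7.51 FPKM in HCCLM3 alone. The groups did not overlap, and TGFA was 2.12-fold lower in HCCLM3 with LX2 (log2 fold change -1.08, SE 0.0838; edgeR adjusted p = 0.000771). BTC encodes betacellulin, a ligand of EGFR and ERBB4. It had 2.46, 2.71 and 2.57 FPKM in HCCLM3 with LX2, against 3.83, 4.26 and 3.11 FPKM in HCCLM3 alone. Its groups also did not overlap, with the lowest library alone closest to the co-culture (log2 fold change -0.70, SE 0.151; edgeR adjusted p = 0.0201). The call of BTC was lost in 5 of 6 fits that left out 1 library, each time except without HCCLM3 alone replicate 3, with adjusted p-values of up to 0.0710.

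HBEGF encodes heparin-binding EGF-like growth factor, also the receptor of diphtheria toxin. It had 1.59, 1.72 and 1.42 FPKM in HCCLM3 with LX2, against 1.22, 1.11 and 0.816 FPKM in HCCLM3 alone. The libraries of the co-culture were all the higher ones, but the change did not pass (log2 fold change 0.42, SE 0.203; edgeR adjusted p = 0.191). HBEGF was thus the 1 ligand gene of the 5 whose value was higher in HCCLM3 with LX2.

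**Figure D1:**
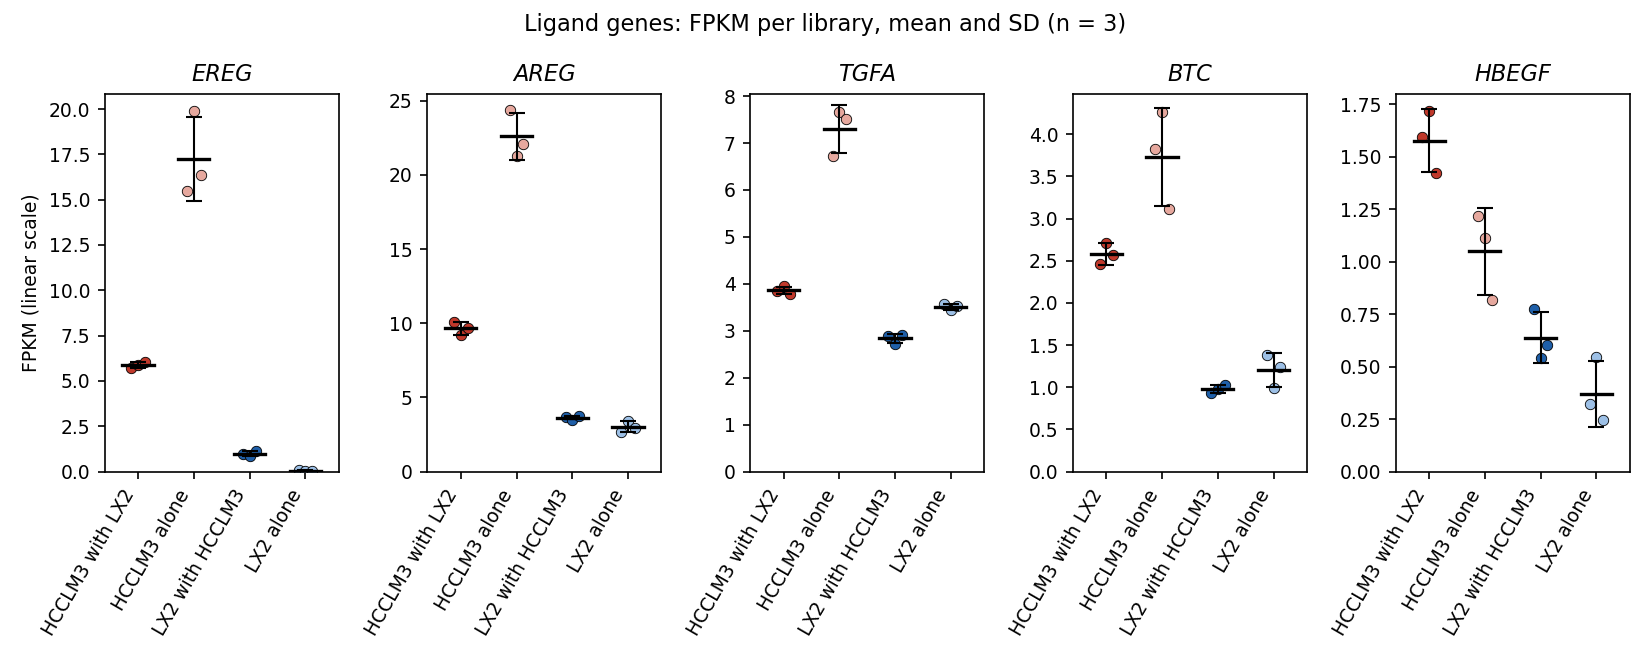
FPKM (linear axis from 0, own scale per panel) of EREG, AREG, TGFA, BTC and HBEGF in each library of the 4 groups; points are libraries, thick bars means and thin bars SD (n = 3). EREG lies between 5.71 and 6.02 FPKM in HCCLM3 with LX2 and between 15.5 and 19.9 FPKM in HCCLM3 alone, and is low in both LX2 groups.

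Among the receptors, EGFR had 6.02, 7.40 and 5.92 FPKM in HCCLM3 with LX2, against 4.67, 6.35 and 5.71 FPKM in HCCLM3 alone. The groups overlapped, and no change was detected (log2 fold change 0.04, SE 0.130; edgeR adjusted p = 0.841). ERBB2 had 1.84, 1.94 and 1.61 FPKM in HCCLM3 with LX2, against 0.605, 0.544 and 0.801 FPKM in HCCLM3 alone. The lowest library of the co-culture lay above the highest alone, and ERBB2 was 2.46-fold higher in HCCLM3 with LX2 (log2 fold change 1.3, SE 0.169; edgeR adjusted p = 0.00370). ERBB3 had 3.30, 5.66 and 3.84 FPKM in HCCLM3 with LX2, against 1.33, 2.01 and 2.07 FPKM in HCCLM3 alone. Its groups did not overlap, and replicate 2 of the co-culture stood above its fellows. ERBB3 was 2.10-fold higher in HCCLM3 with LX2 (edgeR adjusted p = 0.0215, log2 fold change 1.07 with SE 0.236). The call was lost without HCCLM3 alone replicate 1 (adjusted p = 0.0529) and without HCCLM3 with LX2 replicate 3 (adjusted p = 0.0532).

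ERBB2 shares exonic bases with 2 genes on the opposite strand, 194 with PGAP3 and 571 with MIEN1, of 10321 in all. The strand setting of the counting is not stated in the labels or file headers. In HCCLM3 neither neighbour passed, with PGAP3 at 0.19 on the log2 scale (edgeR adjusted p = 0.415) and MIEN1 at -0.09 (edgeR adjusted p = 0.554). EGFR shares 186 of 12521 exonic bases with EGFR-AS1 on the opposite strand, which had 44 counts over HCCLM3 with LX2 and 85 over HCCLM3 alone. ERBB3 overlaps AC034102.2, which had 0 counts in every library of both lines, and the 5 ligand genes share no exon with another gene of GENCODE release 29.

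**Figure D2:**
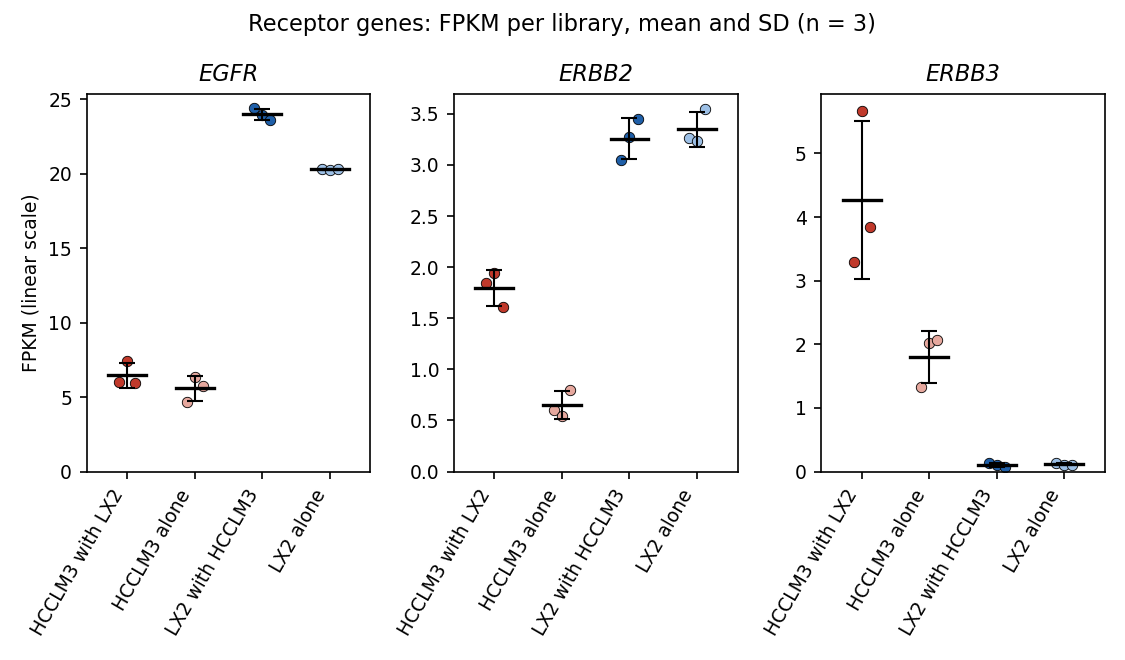
FPKM (linear axis from 0, own scale per panel) of EGFR, ERBB2 and ERBB3 in each library of the 4 groups; points are libraries, thick bars means and thin bars SD (n = 3). ERBB2 and ERBB3 are higher in HCCLM3 with LX2 than in HCCLM3 alone, while EGFR is highest in the LX2 libraries, at 23.6 to 24.4 FPKM in LX2 with HCCLM3.

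Markers of other cells moved with these changes in HCCLM3. All 6 erythroid markers were higher in HCCLM3 with LX2, where their sum was 80.6 to 112 FPKM, against 0 to 0.0471 FPKM in HCCLM3 alone. Of 11 leukocyte markers 8 were tested and 6 rose, with sums of 34.9 to 44.6 FPKM in HCCLM3 with LX2 and 22.0 to 25.5 FPKM in HCCLM3 alone, where LAPTM5, TYROBP, S100A8, S100A9, CD3E and MS4A1 were at 0. Most of these sums was CD68, which was not among the 6, at 26.3 ± 3.21 FPKM in HCCLM3 with LX2 and 22.4 ± 1.83 FPKM in HCCLM3 alone. PTPRC, which encodes the leukocyte antigen CD45, had 23, 16 and 67 counts in HCCLM3 with LX2 and 34, 34 and 0 counts in HCCLM3 alone. Of 6 granulocyte precursor markers 5 were tested and rose, with sums of 4.19 to 5.54 FPKM in HCCLM3 with LX2 and all 6 at 0 in HCCLM3 alone. Of 6 epithelial markers 4 fell, with sums of 663 to 767 FPKM in HCCLM3 with LX2 and 1039 to 1173 FPKM in HCCLM3 alone. The keratin genes KRT8, KRT18 and KRT19 made up most of these sums. CDH1 and EPCAM did not pass, and their means were higher in HCCLM3 with LX2. CDH1 stood at 2.65 ± 0.225 FPKM there and 1.17 ± 0.481 FPKM in HCCLM3 alone, and EPCAM at 0.360 ± 0.121 and 0.178 ± 0.0343 FPKM. Of 5 hepatocyte markers tested 3 rose. Of 5 endothelial markers 3 were tested and 2 fell (15.8 to 17.3 FPKM in HCCLM3 with LX2, 32.7 to 42.1 FPKM in HCCLM3 alone). CDH5 was at 0 in both groups. Among 8 stellate and fibroblast markers tested 1 rose (12.2 to 20.4 FPKM in HCCLM3 with LX2, 13.1 to 15.1 FPKM in HCCLM3 alone). LUM was the largest part of the latter sums, with means of 9.25 FPKM in HCCLM3 with LX2 and 10.97 FPKM in HCCLM3 alone. COL1A1 had 21, 356 and 1448 counts with LX2 and 16, 20 and 541 alone. COL1A2 had 0, 320 and 853 counts with LX2 and 0, 0 and 502 alone. SPARC had 42, 146 and 610 counts with LX2 and 93, 88 and 191 alone. For COL1A1, COL1A2 and SPARC replicate 3 was the highest in both groups, so the libraries alone were not uniform. The part of these markers in the changes of the ligand and receptor genes was not tested.

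In LX2 with HCCLM3, EREG and EGFR rose and TGFA fell. This gives 3 of 8 members called, against 31.9% of the 19671 genes tested in that line. Higher calls were 2 of 8 (15.4% of all genes) and lower calls 1 of 8 (16.6% of all genes). Libraries of both groups did not overlap in scaled counts in 4 of 8 members, as in 48% of all genes tested.

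EREG had 437, 394 and 528 counts in LX2 with HCCLM3, against 47, 16 and 15 counts in LX2 alone. In FPKM these were 0.995, 0.839 and 1.11 in LX2 with HCCLM3, against 0.102, 0.0361 and 0.0338 in LX2 alone. The groups stood well apart, and among the libraries alone replicate 1 was the highest. EREG was 16.2-fold higher in LX2 with HCCLM3 (log2 fold change 4.02, SE 0.443; edgeR adjusted p = 0.000930), and its log2 fold change was 4.73 without LX2 alone replicate 1. On log2(FPKM + 1) with limma, which compresses low levels, its log2 change was 0.90, and the call held.

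AREG had 3.67, 3.50 and 3.73 FPKM in LX2 with HCCLM3, against 2.67, 3.42 and 2.96 FPKM in LX2 alone. The groups did not overlap, but the change did not pass (log2 fold change 0.24, SE 0.118; edgeR adjusted p = 0.177). TGFA had 2.88, 2.72 and 2.91 FPKM in LX2 with HCCLM3, against 3.57, 3.44 and 3.52 FPKM in LX2 alone. Every library of the co-culture was lower, and TGFA was 1.26-fold lower in LX2 with HCCLM3 (log2 fold change -0.34, SE 0.0620; edgeR adjusted p = 0.00785). BTC had 0.929, 0.985 and 1.02 FPKM in LX2 with HCCLM3, against 1.38, 0.986 and 1.24 FPKM in LX2 alone. Its groups overlapped, and it did not pass (log2 fold change -0.33, SE 0.156; edgeR adjusted p = 0.170). HBEGF had 0.773, 0.540 and 0.601 FPKM in LX2 with HCCLM3, against 0.322, 0.545 and 0.244 FPKM in LX2 alone. The groups overlapped through LX2 alone replicate 2 (log2 fold change 0.74, SE 0.325; edgeR adjusted p = 0.137), and without that library the change passed (log2 fold change 1.12, adjusted p = 0.0284).

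EGFR had 24.4, 23.9 and 23.6 FPKM in LX2 with HCCLM3, against 20.3, 20.2 and 20.3 FPKM in LX2 alone. The libraries of each group were tightly spaced, so that a rise of 1.16-fold passed (log2 fold change 0.21, SE 0.0234; edgeR adjusted p = 0.000930). ERBB2 had 3.05, 3.28 and 3.44 FPKM in LX2 with HCCLM3, against 3.27, 3.24 and 3.55 FPKM in LX2 alone. The groups overlapped, with no change detected (log2 fold change -0.07, SE 0.0668; edgeR adjusted p = 0.490). ERBB3 was scarce in LX2, with 94, 80 and 53 counts in LX2 with HCCLM3, against 90, 71 and 72 counts in LX2 alone. These counts overlapped as well (log2 fold change -0.13, SE 0.281; edgeR adjusted p = 0.768).

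EREG was abundant in HCCLM3, so transcripts of HCCLM3 in the LX2 libraries of the co-culture were measured beside its rise. Over 57 genes with at least 20 FPKM in HCCLM3 alone and under 0.1 FPKM in LX2 alone, the rise in LX2 with HCCLM3 had a median of 0.558% of the level in HCCLM3 alone, with a highest value of 3.12% (CXCL5). The keratin gene KRT19 had 44, 43 and 111 counts in LX2 with HCCLM3 and 0 in LX2 alone, and the cadherin gene CDH17 had 55, 63 and 64 counts in LX2 with HCCLM3 and 0 in LX2 alone. The rise of EREG was 5.36% of its level in HCCLM3 alone, above each of the 57 genes. That of AREG, which did not pass, was 2.73%, with 1 of the 57 genes at or above it. Measured against HCCLM3 with LX2, the 57 genes had a median of 0.551% and a highest value of 4.31%, EREG 15.7% and AREG 6.39%. These percentages set levels across tables that were scaled separately and are a description.

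**Figure D3:**
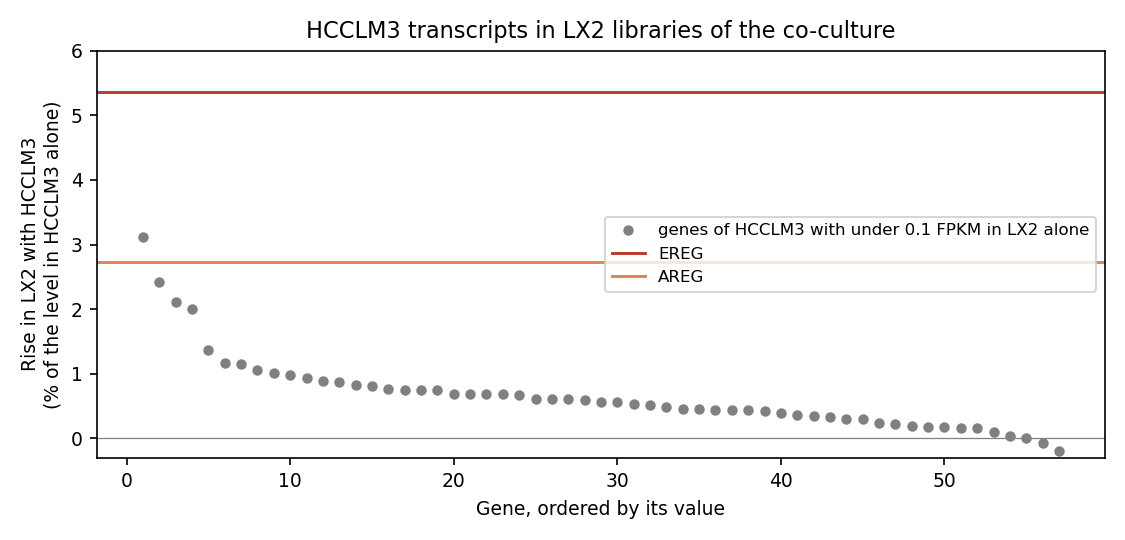
Rise of each of 57 HCCLM3 genes in LX2 with HCCLM3, in percent of its FPKM in HCCLM3 alone (linear axis), in falling order, with lines for EREG and AREG. The line of EREG at 5.36% lies above every point, and that of AREG at 2.73% lies below 1 point.

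In the other direction, over 41 genes with at least 20 FPKM in LX2 alone and under 0.1 FPKM in HCCLM3 alone, the rise in HCCLM3 with LX2 had a median of 0.143% of the level in LX2 alone and a highest value of 0.942%. The rise of ERBB2 in HCCLM3 was 34.2% of its level in LX2 alone. ERBB3 in HCCLM3 with LX2 stood above its level in either LX2 group. In LX2 the blood markers stayed low, with erythroid sums of 0.0502 to 1.32 FPKM in LX2 with HCCLM3 and 0.0784 to 0.189 FPKM in LX2 alone, and none of them passed the filter there. Leukocyte sums were 1.02 to 1.44 FPKM in LX2 with HCCLM3 and 0.958 to 1.41 FPKM in LX2 alone, with CD68 as the 1 called of 6 tested. CD68 rose, at 0.625 ± 0.0942 FPKM in LX2 with HCCLM3 and 0.264 ± 0.114 FPKM in LX2 alone. Granulocyte precursor sums were 0.485 to 0.932 FPKM in LX2 with HCCLM3 and 0.919 to 1.56 FPKM in LX2 alone. PRTN3 made up most of these sums, at 0.562 ± 0.135 FPKM in LX2 with HCCLM3 and 1.13 ± 0.386 FPKM in LX2 alone. Of the 6 epithelial markers 3 rose (KRT8, KRT19 and CDH17) and 1 fell (KRT18) in LX2, and KRT19 and CDH17 are among the HCCLM3 genes measured above. Of the 6 stellate and fibroblast markers tested 2 rose and 3 fell, and of the 4 endothelial markers tested 1 rose and 1 fell. The part of these markers in the LX2 changes was not tested.

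Whether the lines differed in their change was tested over all 12 libraries as the change in HCCLM3 minus the change in LX2. Of the 8 members 5 differed, against 20.7% of 21959 genes tested, 2 with a positive difference (9.39% of all genes) and 3 with a negative one (11.3% of all genes). With TMM factors 2063 genes had a positive and 2483 a negative difference, and with library totals 2989 had a positive and 1588 a negative one, with the same 5 members called in the same directions. EREG had a difference of -5.76 log2 units (SE 0.400; edgeR adjusted p = 4.65e-06), or -6.48 without LX2 alone replicate 1, with every library of HCCLM3 with LX2 below and every library of LX2 with HCCLM3 above its line alone. AREG had a difference of -1.67 (SE 0.153; edgeR adjusted p = 3.04e-05). TGFA fell in both lines, and more so in HCCLM3, with a difference of -0.78 (SE 0.0972; edgeR adjusted p = 0.000246). The differences of ERBB2 and ERBB3 were 1.33 (SE 0.187; edgeR adjusted p = 0.000539) and 1.17 (SE 0.370; edgeR adjusted p = 0.0466), and that of ERBB3 was lost in 10 of 12 fits that left out 1 library, with adjusted p-values of up to 0.109. HBEGF, BTC and EGFR had differences of -0.36, -0.41 and -0.20 that did not pass (edgeR adjusted p = 0.619, 0.255 and 0.360). For EGFR this means that its call in LX2 and the missing call in HCCLM3 do not show a difference between the lines.

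**Figure D4:**
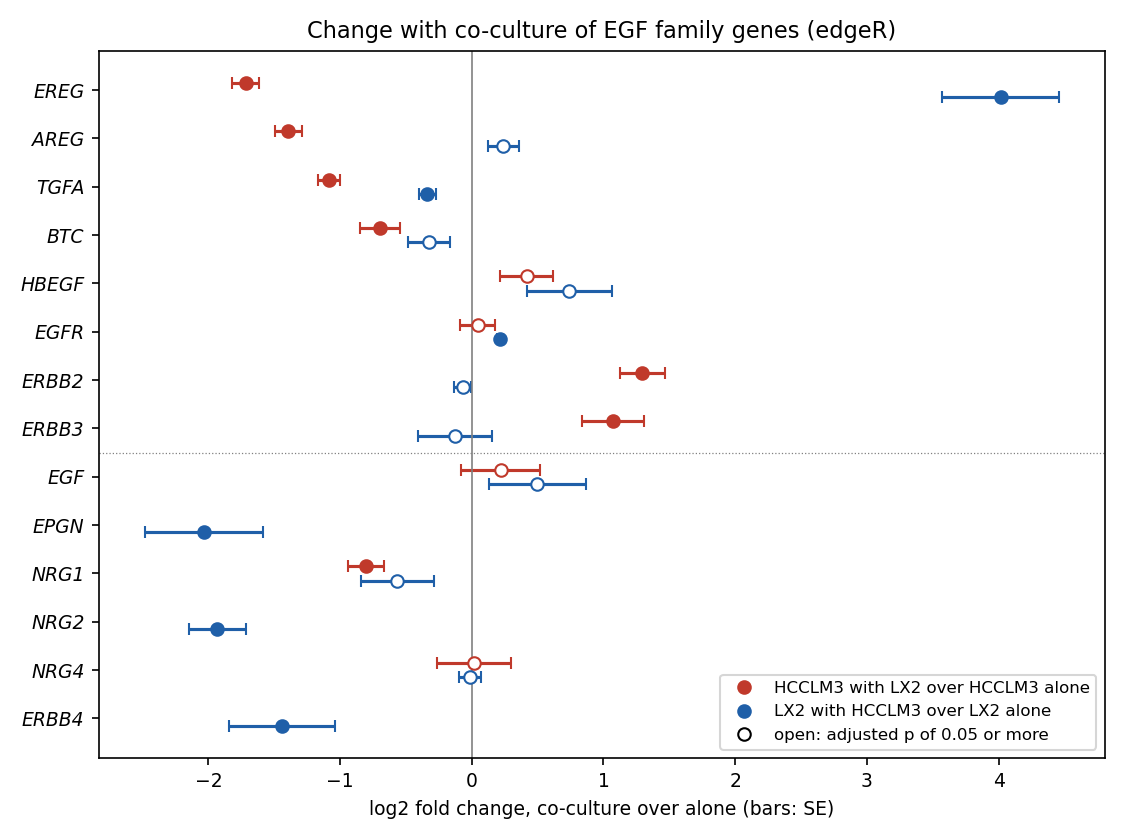
Log2 fold change with co-culture (points) and its SE (bars) in HCCLM3 and LX2 for the 8 members, above the dotted line, and the other EGF family genes that passed the filter, with open points where the adjusted p is 0.05 or more. EREG lies at -1.72 in HCCLM3 and at 4.02 in LX2, and ERBB2 and ERBB3 lie to the right in HCCLM3.

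The ranking of ligand transcripts within a group can be read per length from FPKM. In HCCLM3 with LX2 and in HCCLM3 alone the order was AREG, EREG, TGFA, BTC and HBEGF, and no neighbours in that order overlapped in either group. In LX2 with HCCLM3 the order was AREG (3.63 ± 0.119 FPKM), TGFA (2.84 ± 0.102 FPKM), EREG (0.980 ± 0.134 FPKM), BTC (0.978 ± 0.0463 FPKM) and HBEGF (0.638 ± 0.121 FPKM), with EREG and BTC overlapping. In LX2 alone TGFA came first (3.51 ± 0.0667 FPKM), then AREG (3.02 ± 0.377 FPKM), BTC (1.20 ± 0.201 FPKM), HBEGF (0.370 ± 0.156 FPKM) and last EREG (0.0573 ± 0.0388 FPKM), with no overlap between neighbours. EREG thus held rank 3 in LX2 with HCCLM3 and rank 5 in LX2 alone.

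Summed over the 5 ligand genes, the level was 23.5 ± 0.116 FPKM in HCCLM3 with LX2 and 51.9 ± 2.17 FPKM in HCCLM3 alone. In LX2 with HCCLM3 the sum was 9.06 ± 0.422 FPKM, and in LX2 alone 8.16 ± 0.232 FPKM. EREG made up 25.0% ± 0.756 of that sum in HCCLM3 with LX2 and 33.1% ± 3.36 in HCCLM3 alone. HBEGF made up 6.70% ± 0.639 in HCCLM3 with LX2 and 2.02% ± 0.364 in HCCLM3 alone, while AREG made up 41.0% ± 1.71 in HCCLM3 with LX2 and 43.6% ± 4.02 in HCCLM3 alone. In LX2 EREG was 10.8% ± 1.02 of the sum in the co-culture and 0.706% ± 0.487 alone. These sums follow from the members' own values and were not tested.

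**Figure D5:**
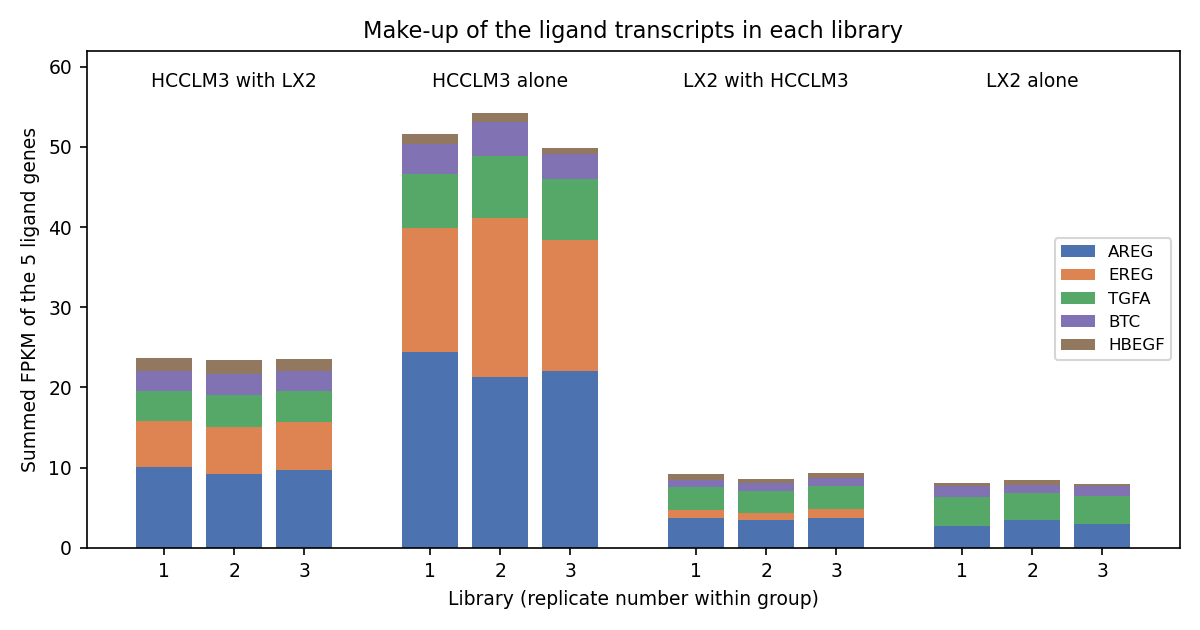
Stacked FPKM (linear axis from 0) of AREG, EREG, TGFA, BTC and HBEGF in each of the 12 libraries, by group. The summed height is near 23.5 FPKM in HCCLM3 with LX2 and near 51.9 FPKM in HCCLM3 alone, and EREG is visible as a band in LX2 with HCCLM3 but hardly in LX2 alone.

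Of the 3 receptor genes EGFR was the most abundant in every group, and no neighbours in the order of levels overlapped. In both HCCLM3 groups ERBB3 lay above ERBB2, and in both LX2 groups ERBB2 lay above ERBB3. The share of EGFR in the summed FPKM of the 3 genes was 51.8% ± 2.32 in HCCLM3 with LX2 and 69.5% ± 2.58 in HCCLM3 alone. In LX2 it was 87.7% ± 0.708 with HCCLM3 and 85.4% ± 0.564 alone. ERBB3 made up 33.7% ± 4.08 in HCCLM3 with LX2, 22.3% ± 1.99 in HCCLM3 alone and under 1% in both LX2 groups (0.382% ± 0.117 with HCCLM3 and 0.471% ± 0.0659 alone).

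Of the 7 other genes of the family, 3 passed the filter in HCCLM3, where 1 fell and none rose (11.6% and 10.1% of all genes), and 6 passed it in LX2, where 3 fell and none rose (16.6% and 15.4% of all genes). NRG1, which encodes neuregulin 1, a ligand of ERBB3 and ERBB4, had 0.644, 0.723 and 0.824 FPKM in HCCLM3 with LX2, against 1.19, 0.977 and 1.25 FPKM in HCCLM3 alone. Its groups did not overlap (log2 fold change -0.80, SE 0.139; edgeR adjusted p = 0.00955), and the call was lost with limma on log2(FPKM + 0.1) (adjusted p = 0.0555). In LX2 NRG1 stood at 0.321 ± 0.0880 FPKM with HCCLM3 and 0.466 ± 0.146 FPKM alone and did not pass (edgeR adjusted p = 0.176). NRG2, which encodes a neuregulin that also binds ERBB3 and ERBB4, was 3.82-fold lower in LX2 with HCCLM3, at 0.175 ± 0.0429 FPKM against 0.661 ± 0.0670 FPKM in LX2 alone (edgeR adjusted p = 0.00103), and had 0, 4 and 0 counts in HCCLM3 with LX2 and 0 in HCCLM3 alone.

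EPGN, the first gene of the chromosome 4 cluster, had 18, 16 and 11 counts in LX2 with HCCLM3, against 32, 78 and 62 counts in LX2 alone. It fell where its neighbour EREG rose (log2 fold change -2.03, SE 0.451; edgeR adjusted p = 0.0161), although the call was lost in 3 of 6 fits that left out 1 library. In HCCLM3 EPGN had 0 counts with LX2 and 8 counts over the libraries alone, all in 1 library. ERBB4, the fourth receptor, had 23, 42 and 76 counts in LX2 with HCCLM3, against 125, 127 and 100 counts in LX2 alone (log2 fold change -1.44; edgeR adjusted p = 0.0365). That call was lost in 5 of 6 fits that left out 1 library. In HCCLM3 ERBB4 had no count in any library, which in the library with the fewest counts allows up to 0.0457 CPM (3 counts). EGF itself stood at 0.618 ± 0.0843 FPKM in HCCLM3 with LX2, 0.474 ± 0.197 FPKM in HCCLM3 alone, 0.0735 ± 0.0189 FPKM in LX2 with HCCLM3 and 0.0504 ± 0.0160 FPKM in LX2 alone, and passed in neither line (edgeR adjusted p = 0.649 in HCCLM3 and 0.361 in LX2). NRG4, a ligand of ERBB4, stood at 0.437 ± 0.145 FPKM in HCCLM3 with LX2, 0.380 ± 0.0494 FPKM in HCCLM3 alone, 3.37 ± 0.290 FPKM in LX2 with HCCLM3 and 3.34 ± 0.169 FPKM in LX2 alone, with no change detected. It shares 38.1% of its exonic bases with FBXO22 on the opposite strand, so its counts are uncertain. NRG3 had no count in HCCLM3 and no row in the LX2 table.

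Of 7 genes of ligand shedding, 1 rose and 0 fell in HCCLM3, and 0 rose and 3 fell in LX2, with median log2 fold changes of 0.47 and -0.15 beside 0.03 and 0.01 over all genes tested. Of all genes tested 10.1% rose and 11.6% fell in HCCLM3, and 15.4% rose and 16.6% fell in LX2. ADAM17, the main protease that frees AREG, EREG, HBEGF and TGFA, stood at 4.66 ± 0.433 FPKM in LX2 with HCCLM3 and 5.92 ± 0.387 FPKM in LX2 alone (log2 fold change -0.37; edgeR adjusted p = 0.0144). In LX2 ADAM10, known to cut BTC and EGF, changed by -0.15 on the log2 scale (edgeR adjusted p = 0.0214). RHBDF1, which encodes a rhomboid-like protein that helps ADAM17 to mature, changed by -0.49 (edgeR adjusted p = 0.00533). In HCCLM3 none of these 3 passed, with log2 fold changes of 0.47, -0.16 and 0.33 (edgeR adjusted p = 0.263, 0.374 and 0.0750). The gene that rose there was RHBDL2, which encodes a rhomboid protease, at 1.97 ± 0.142 FPKM in HCCLM3 with LX2 and 1.07 ± 0.243 FPKM in HCCLM3 alone (edgeR adjusted p = 0.04998, just inside the threshold of 0.05).

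Of 12 receptor inhibitors and ubiquitin ligase genes, 3 rose and 2 fell in HCCLM3, and of 11 tested in LX2 4 rose and 2 fell, with medians of 0.27 and -0.08, where 21.7% and 31.9% of all genes tested were called. ERRFI1, which encodes the EGFR inhibitor MIG6, stood at 47.4 ± 1.92 FPKM in LX2 with HCCLM3 and 22.4 ± 1.37 FPKM in LX2 alone (log2 fold change 1.05; edgeR adjusted p = 4.43e-05). In HCCLM3 it did not pass (log2 fold change -0.02; edgeR adjusted p = 0.858), and the lines differed (difference -1.11; edgeR adjusted p = 1.98e-05). SH3KBP1, which encodes an adaptor that links CBL to the uptake of receptors, fell in both lines (log2 fold changes of -0.30 in HCCLM3 and -1.11 in LX2; edgeR adjusted p = 0.0422 and 1.36e-05). In LX2 CBLB, a ubiquitin ligase gene, rose (log2 fold change 0.59; edgeR adjusted p = 0.000413) and SOCS5 fell (log2 fold change -0.65; edgeR adjusted p = 3.17e-05). Named after their values were seen, CBL, which encodes the ubiquitin ligase that marks EGFR for breakdown, was at 1.84 ± 0.218 FPKM in HCCLM3 with LX2 and 0.317 ± 0.134 FPKM in HCCLM3 alone (log2 fold change 2.36; edgeR adjusted p = 0.00513), and LRIG1, which encodes a negative regulator of ERBB receptors, was at 6.82 ± 0.537 FPKM in HCCLM3 with LX2 and 3.34 ± 0.504 FPKM in HCCLM3 alone (log2 fold change 0.86; edgeR adjusted p = 0.00480). The difference between lines passed for LRIG1 (0.95, edgeR adjusted p = 0.00110) but not for CBL (2.69, edgeR adjusted p = 0.117). Besides SH3KBP1, the remaining calls in HCCLM3 were LRIG3, which rose (log2 fold change 0.45, edgeR adjusted p = 0.0358), and PTPN1, which fell (log2 fold change -0.39, edgeR adjusted p = 0.00720). PTPN1 rose in LX2 (log2 fold change 0.25, edgeR adjusted p = 0.00209).

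Of 20 adaptor and relay genes, 1 rose and 2 fell in HCCLM3 and 2 rose and 3 fell in LX2, with medians of -0.002 and -0.08. Both counts lie below the shares of all genes called, 21.7% in HCCLM3 and 31.9% in LX2. SOS1, which encodes an exchange factor of RAS, fell in HCCLM3 and rose in LX2 (log2 fold changes of -0.40 and 0.32; edgeR adjusted p = 0.0355 and 0.00226), and AKT2 fell in HCCLM3 (log2 fold change -0.35; edgeR adjusted p = 0.0193). NRAS and PTPN11 fell slightly in LX2, with log2 fold changes of -0.12 and -0.10 (edgeR adjusted p = 0.0187 and 0.0234).

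Of 16 targets and feedback genes of ERK, the kinase downstream of the receptors, 1 rose and 6 fell in HCCLM3, and 5 rose and 4 fell in LX2, with medians of -0.22 and 0.19, beside 10.1% of all genes higher and 11.6% lower in HCCLM3 and 15.4% higher and 16.6% lower in LX2. The transcription factor gene EGR1 stood at 7.94 ± 0.0602 FPKM in HCCLM3 with LX2 and 18.0 ± 1.52 FPKM in HCCLM3 alone. In LX2 it stood at 40.3 ± 0.819 FPKM with HCCLM3 and 24.3 ± 0.606 FPKM alone, so that, like EREG, it fell in HCCLM3 (log2 fold change -1.35; edgeR adjusted p = 0.000626) and rose in LX2 (log2 fold change 0.70; edgeR adjusted p = 3.58e-05). DUSP5, which encodes an ERK phosphatase, did the same, with log2 fold changes of -0.70 in HCCLM3 and 1.41 in LX2 (edgeR adjusted p = 0.00127 and 6.48e-05). SPRY2, which encodes a feedback inhibitor, fell in LX2, at 3.49 ± 0.200 FPKM with HCCLM3 and 11.6 ± 0.549 FPKM alone (edgeR adjusted p = 1.3e-05). IER3 fell there too (log2 fold change -0.77; edgeR adjusted p = 6.89e-06), and neither passed in HCCLM3 (edgeR adjusted p = 0.183 and 0.465).

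By the correlation of log2 CPM (counts scaled to library size) over the 12 libraries, centred within each line, the 5 genes most like EREG among 10169 candidates were PCYT2 (r = 0.98), SLC16A6 (r = 0.97), MVD (r = 0.97), DHRS4 (r = 0.97) and SELENOI (r = 0.97). The libraries of a group share their culture conditions, so r mainly reflects the group means. SLC16A6, which encodes a transporter of the monocarboxylate family, had log2 fold changes of -1.12 in HCCLM3 and 2.63 in LX2. The genes most like AREG were DDX1, KCMF1, AATF, RAP1GAP and POLR3C, each with r = 0.98 or more (0.983 to 0.985). EREG and AREG had r = 0.49 with each other by the same measure.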

How the data were processed

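RNA sequencing of 12 libraries was used, 3 in each of 4 groups taken from the labels. Per the labels' protocols, polyadenylated RNA was sequenced from both ends. The submitters' processing notes list HISAT2 2.0, StringTie 1.3.0 and Bowtie 0.12.2 without their roles. They name mm8 as build, which is mouse, while the gene identifiers are human, and GENCODE release 29 held 58394 of the 60612 identifiers. In 1 table per line the authors deposited counts per gene and FPKM values for each library, per the file headers, and an FPKM beside a count of 0 was read as 0.

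Counts were tested with edgeR 4.0.16 (R 4.3.3): filterByExpr (minimum count 10, minimum total 15), TMM factors, and a quasi-likelihood test of co-culture against alone within each line, called at a Benjamini-Hochberg adjusted p under 0.05. The SE is the absolute log2 fold change over the square root of F. The difference between lines was fitted over all 12 libraries, with genes missing from either table at 0 counts there. Alternatives were library totals, DESeq2 1.42.0, no filter, the replicate number as a block, limma 3.58.1 on log2(FPKM + 1) or log2(FPKM + 0.1), and leaving out each library. The fits were tested on simulated data. The members and lists (5 of the pathway, 7 of markers) were chosen with earlier results of these data known. Genes named beyond the family were up to 4 per pathway list with the smallest p, and the 5 genes most like EREG and AREG with a mean of at least 5 CPM in 1 group of each line (prior count 2). In addition CBL, LRIG1, LRIG3 and PTPN1 were named after their values were seen. The floor given for a gene without counts covers counting error only. Tables were made with pandas 2.3.3 and Python 3.11.15.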

Additional observations from a re-analysis of the deposited data

Results flagged for a closer look

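The change with co-culture differed between the lines in 5 members by the edgeR test of the difference itself, given as the change in HCCLM3 minus that in LX2 on the log2 scale. The differences were -5.76 for EREG, -1.67 for AREG, -0.78 for TGFA, 1.33 for ERBB2 and 1.17 for ERBB3. EREG was lower in 3 of 3 libraries of HCCLM3 with LX2 and higher in 3 of 3 libraries of LX2 with HCCLM3 than in any library of the same line alone.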

How the results depend on the processing

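Over the 8 members and 3 comparisons, 298 of 320 values under an alternative kept their direction and their side of the threshold, 18 lost a call, 1 gained one and 3 changed sign. The calls of EREG, AREG, TGFA and ERBB2 in HCCLM3, and of EREG, TGFA and EGFR in LX2, held under each alternative run. Leaving out single libraries gave 4 to 6 members called in HCCLM3, 3 to 4 in LX2 and 4 to 5 in the difference, and 1918 to 2928 genes called in HCCLM3 (3924 with all libraries). The members whose sign changed were not called: EGFR in HCCLM3 (-0.0602 to 0.137 with single libraries left out) and ERBB3 in LX2 (-0.3585 to 0.0882). Among the other family genes, with single libraries left out, NRG4 ranged from -0.1888 to 0.2449 in HCCLM3 and from -0.0635 to 0.0549 in LX2, and EGF from -0.0171 to 0.5757 in HCCLM3. NRG4 in LX2 was also 0.0154 on library totals and 0.0086 and 0.0104 with limma at a pseudocount of 1 and 0.1. With the replicate block, NRG4 in HCCLM3 was -0.0236, genes called were 3315 in HCCLM3, 4795 in LX2 and 4439 in the difference, and the members called were 6, 3 and 5. Pairing by replicate number was checked on deviations, not on expression levels, between co-cultured and alone libraries. These deviations correlated at 0.0171 to 0.0452 for the same number in HCCLM3, where 6 of 6 libraries correlated best with their own number. In LX2 the same-numbered deviations correlated at -0.0408 to 0.0115, and 1 of 6 libraries did so. The lines thus differed in this, and the main test took no pairs in either. Under the block the calls of EPGN and ERBB4 in LX2 were lost and NRG1 in LX2 passed (log2 fold change -0.55, adjusted p = 0.0176). On library totals the median log2 fold change of all genes tested in HCCLM3 was 0.21, against 0.03 with TMM, and no member changed sign or call. The cause of these shifts was not tested. Low counts limit EREG in LX2 alone, ERBB3 in LX2, EPGN and ERBB4.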
